A study of Mus musculus with 12 samples.

Results

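TCRBV12-01 and TCRBV12-02 are TCRβ V genes of the mouse, and their use was followed across CD8+ T cells infiltrating a tumor (TILs) and 3 subsets of CD8+ T cells from the spleen of the same mice. They were chosen by name alone, so that a rearrangement was a member when its single assigned V gene was one of these 2 of the 35 V genes named in the files. Of 288925 rearrangements in 12 libraries, 21748 used TCRBV12-01 and 14189 used TCRBV12-02. Productive rearrangements, which are in frame without a stop codon, numbered 17168 for TCRBV12-01 and 11714 for TCRBV12-02 of 205925 in all. Out of frame were 4495 and 2438 of 79915, and 85 and 37 of 3085 held a stop codon.

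The libraries came from female C57BL/6 mice, aged 7 to 10 weeks, that carried subcutaneous MC38 tumors, a colon adenocarcinoma line of the same strain. All 4 groups had received anti-CTLA-4 Ab together with anti-PD-L1 Ab for 2 weeks, so that no untreated group was compared. CD27lo CX3CR1-, CD27hi CX3CR1- and CX3CR1+ splenic CD8+ T cells were sorted by flow cytometry, while CD8+ TILs were taken with CD8a beads, and the sample labels call the same gates CX3CR1 low and high. Each of 3 independent experiments (A, B and C here, named in the order of codes in the labels) gave 1 library per group, and since each experiment used 10 mice, libraries are treated as pools and p-values measure the spread between experiments. The assay read genomic DNA of rearranged TCRβ genes only, and the labelled cell types could not be checked against markers.

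TCRβ chains are assembled in the thymus by joining a V, a D and a J segment, with nucleotides trimmed from and added to the ends. The junction forms most of the CDR3, the loop that mainly contacts the peptide on MHC. A T cell can carry a failed, out-of-frame rearrangement on its other allele. That rearrangement encodes no receptor, but it is copied whenever the cell divides. TCRBV12-01 and TCRBV12-02 correspond to Trbv12-1 and Trbv12-2, known from antibody staining as Vβ5.2 and Vβ5.1. Vβ5 T cells are deleted in strains with I-E and endogenous retroviral superantigens, and C57BL/6 mice lack I-E. The OT-I receptor, widely used in C57BL/6 studies of CD8+ T cells, is built on Vβ5.

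In the RefSeq annotation of GRCm38.p6, Trbv12-1 lies on chromosome 6 from 41113567 to 41114067 and Trbv12-2 from 41118864 to 41119364, each 501 bp long. Trbv13-1 lies between them, and the pseudogene Trbv12-3 follows at 41127592 to 41128076.

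Sequences of TCRBV12-01 rearrangements of 1 CDR3 are given first, because the template shares below turn on this CDR3. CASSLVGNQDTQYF is the CDR3 amino acid (AA) sequence that the study picked out, on these libraries, as shared between CX3CR1+ CD8+ T cells and TILs of all 3 experiments. It is called the public CDR3 here. Rearrangements R1 and R2 were its most abundant TCRBV12-01 rearrangements in the TILs (R1 in experiments A and C, R2 in experiment B), and R1 and R3 were those found in all 3 experiments. Each deposited sequence has 87 bases and reads 5′ to 3′ from V to J, and capitals mark the junction between the last V base and the first J base.
R1: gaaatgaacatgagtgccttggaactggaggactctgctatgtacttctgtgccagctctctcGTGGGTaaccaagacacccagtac
R2: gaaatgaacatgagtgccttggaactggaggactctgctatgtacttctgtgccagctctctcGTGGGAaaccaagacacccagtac
R3: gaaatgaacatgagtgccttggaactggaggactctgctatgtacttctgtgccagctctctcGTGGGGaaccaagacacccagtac

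R1, R2 and R3 differ from each other at 1 base each, inside the junction, and encode the same AA sequence. All of them were joined to TCRBJ02-05, and their junctions held 1 or 2 inserted bases.

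Depth differed widely between libraries. Unique productive rearrangements per library ranged from 1359 to 54639, out-of-frame ones from 627 to 21134, and productive templates from 5893 to 113660. A template is an estimate of 1 cell, and shares below are percents of the productive rearrangements or productive templates of a library unless stated. The TIL libraries were the smallest, and TCRBV12-01 had 61, 100 and 146 unique productive rearrangements in the TILs of experiments A, B and C, TCRBV12-02 43, 77 and 124.

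TCRBV12-01 was among the most used V genes of the splenic subsets and made up less of the TIL repertoire when each rearrangement was counted once. In experiments A, B and C its share of unique productive rearrangements was 8.12%, 7.96% and 8.08% in CD27lo CX3CR1- cells, and 8.56%, 8.32% and 8.84% in CD27hi CX3CR1- cells. The CX3CR1+ libraries held 7.40%, 7.49% and 8.20%, and the TILs 4.49%, 6.45% and 6.72%. Every TIL library was below every splenic library, and the TILs of experiment A were lowest. Among 32 V genes with productive rearrangements, TCRBV12-01 ranked 2 by mean share in both CX3CR1- subsets, 3 in the CX3CR1+ subset and 7 in the TILs. TCRBV12-02 was steadier, with 5.47% to 5.93% in the 9 splenic libraries and rank 9 in each subset. Its TIL values were 3.16%, 4.97% and 5.71% (mean 4.61% ± 1.31 SD, n = 3), of which the third lay inside the splenic range, and its rank was 11.

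**Figure D1:**
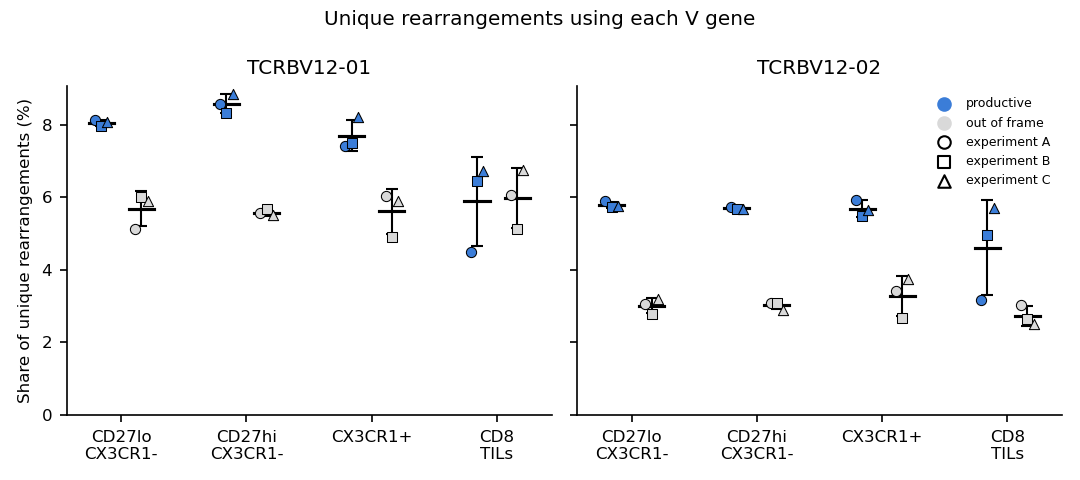
Share of unique rearrangements (percent, y axis) that used TCRBV12-01 (left) or TCRBV12-02 (right) in each group, with productive rearrangements in blue and out-of-frame rearrangements in grey, as 1 point per experiment with the mean and SD as lines. Productive TCRBV12-01 lay above its out-of-frame share in every splenic library, and among them in the TILs, where it ranged from 4.49% to 6.72%, while productive TCRBV12-02 lay above its out-of-frame share in all 12 libraries.

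The first question was whether the subsets differed in V use, and it was tested by edgeR's quasi-likelihood test over 24 V genes with the experiment as a block and Benjamini-Hochberg adjustment. TCRBV12-01 was lower in TILs than in the CX3CR1- subsets by a log2 difference of −0.46 ± 0.0955 (SE, n = 3 per group; adjusted p = 9.16e-04, edgeR), lower in 3 of 3 experiments. In that comparison 12.5% of the V genes tested passed, and the tissue and the way its cells were isolated cannot be told apart. The call was lost when only rearrangements of 2 or more templates were counted (−0.40, adjusted p = 0.0637, edgeR). TCRBV12-01 was also lower in TILs than in CX3CR1+ cells (−0.36 ± 0.104 on the log2 scale, adjusted p = 0.0484, edgeR), where 4.17% of V genes passed. That second call was lost without experiment A (−0.26) or without experiment B (−0.43). CX3CR1+ cells were at −0.10 ± 0.0432 on the log2 scale relative to the CX3CR1- subsets for TCRBV12-01 (adjusted p = 0.176, edgeR), a comparison in which 4.17% of V genes passed. Between CD27lo and CD27hi CX3CR1- cells the log2 difference of TCRBV12-01 was −0.093 (adjusted p = 0.279, edgeR). There, 0% of V genes passed, while 3 of 24 had an unadjusted p below 0.05 and DESeq2 called 0.

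TCRBV12-02 passed in none of these 4 comparisons. Its log2 difference was −0.26 ± 0.116 for TILs against the CX3CR1- subsets (adjusted p = 0.178, edgeR) and −0.24 ± 0.124 for TILs against CX3CR1+ cells (adjusted p = 0.389, edgeR). Without experiment C, both reached the threshold, at −0.48 and −0.47. CX3CR1+ cells differed from the CX3CR1- subsets by −0.014 ± 0.0537, and CD27lo from CD27hi CX3CR1- cells by 0.023 ± 0.0428. The comparisons share their CX3CR1- libraries, and a difference between the members was not tested.

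Out-of-frame rearrangements served as the background, since they record V use without selection on the receptor. Of the out-of-frame rearrangements in experiments A, B and C, TCRBV12-01 made up 5.13%, 6.02% and 5.90% in CD27lo CX3CR1- cells and 5.55%, 5.67% and 5.51% in CD27hi CX3CR1- cells. It made up 6.03%, 4.91% and 5.91% in CX3CR1+ cells and 6.06%, 5.12% and 6.75% in TILs. Groups overlapped, and TCRBV12-01 ranked 7 of 34 V genes in each splenic subset and 5 in the TILs. TCRBV12-02 had 3.01% ± 0.209 (SD, n = 3), 3.02% ± 0.108, 3.28% ± 0.551 and 2.72% ± 0.273 of out-of-frame rearrangements in CD27lo CX3CR1-, CD27hi CX3CR1-, CX3CR1+ and TIL libraries, and ranked 17 to 19. The TIL libraries held 38, 35 and 70 out-of-frame TCRBV12-01 rearrangements and 19, 18 and 26 of TCRBV12-02.

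Both V genes were used more in productive than in out-of-frame rearrangements of the splenic subsets. TCRBV12-01 was higher by 0.50 ± 0.0614 in CD27lo CX3CR1- cells (log2, SE; adjusted p = 1.63e-06, edgeR over 25 V genes with the library as a block). It was higher by 0.62 ± 0.0407 in CD27hi CX3CR1- cells (adjusted p = 4.84e-10) and by 0.45 ± 0.0771 in CX3CR1+ cells (adjusted p = 8.79e-05, edgeR). In TILs the log2 difference was −0.011 ± 0.158 (adjusted p = 0.947, edgeR), and the sign varied between experiments. TCRBV12-02 was higher by 0.94 ± 0.0738, 0.92 ± 0.0468 and 0.75 ± 0.0906 in the 3 splenic subsets in the same order. In TILs it was higher by 0.84 ± 0.201 (adjusted p = 0.00365, edgeR), and without experiment C this call was lost (0.54). Passing was common in this comparison, with 92% of V genes called in CD27lo CX3CR1- cells, 92% in CD27hi CX3CR1- cells, 84% in CX3CR1+ cells and 44% in TILs, and of the CD27hi CX3CR1- calls 10 were higher and 13 lower in productive rearrangements.

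Whether the shift from out-of-frame to productive use differed between groups was tested directly. For TCRBV12-01 the mean shift of CX3CR1+ cells and TILs differed from that of the CX3CR1- subsets by −0.34 ± 0.0971 on the log2 scale. The unadjusted p was 0.0031 (edgeR) and the adjusted p 0.0775, so that the difference missed the threshold. CX3CR1+ cells (shift 0.45) and TILs (−0.011) were not tested apart against the CD27lo (0.50) and CD27hi (0.62) CX3CR1- cells. TCRBV12-02 had −0.13 ± 0.126 (adjusted p = 0.447, edgeR). edgeR called 0% of V genes in this comparison, 6 of 25 had an unadjusted p below 0.05, and DESeq2 called 1. On templates the TCRBV12-01 difference turned to 0.47, and with each experiment left out it ranged from −0.47 to −0.21. It was −0.37 without the public CDR3. It passed the threshold without experiment B (−0.47), with TMM scaling (−0.47), without the block (−0.35, adjusted p = 0.0369, edgeR) and by DESeq2 (−0.38, adjusted p = 0.00604).

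Each rearrangement was next weighted by its templates. In experiments A, B and C, TCRBV12-01 held 8.67%, 8.43% and 9.28% of productive templates in CD27lo CX3CR1- cells and 8.67%, 8.47% and 8.81% in CD27hi CX3CR1- cells. It held 6.79%, 7.93% and 7.35% in CX3CR1+ cells and 5.91%, 13.6% and 9.39% in TILs. TILs therefore had both the lowest and the highest value. TCRBV12-02 held 6.07%, 5.57% and 5.61% in CD27lo CX3CR1- cells and 5.72%, 5.63% and 5.69% in CD27hi CX3CR1- cells. In CX3CR1+ cells it ranged widely, at 7.39%, 2.01% and 5.12%, and in TILs it held 1.32%, 2.05% and 3.01%. Among 32 V genes by mean template share, TCRBV12-01 ranked 1, 2, 5 and 2 in CD27lo CX3CR1-, CD27hi CX3CR1-, CX3CR1+ and TIL libraries, and TCRBV12-02 ranked 9, 9, 9 and 16.

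TCRBV12-02 was lower in TILs than in the CX3CR1- subsets by a log2 difference of −1.37 ± 0.378 (adjusted p = 0.00784, edgeR), lower in 3 of 3 experiments. In this comparison 25% of V genes passed, 1 of them higher and 5 lower, and the median log2 difference over the 24 V genes was −0.35. Without experiment A or without experiment B the TCRBV12-02 difference was −1.16 and no longer passed. It also no longer passed with the public CDR3 left out of the libraries (−1.16). For TILs against CX3CR1+ cells it was −1.05 ± 0.417 (adjusted p = 0.113, edgeR), and for CX3CR1+ cells against the CX3CR1- subsets −0.32 ± 0.34 (adjusted p = 0.444, edgeR).

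TCRBV12-01 passed in no comparison of template shares that counted all its rearrangements. Its log2 differences were −0.25 ± 0.292 for CX3CR1+ cells against the CX3CR1- subsets (adjusted p = 0.448, edgeR), 0.11 ± 0.297 for TILs against the CX3CR1- subsets (adjusted p = 0.770, edgeR) and 0.37 ± 0.34 for TILs against CX3CR1+ cells (adjusted p = 0.497, edgeR). CD27lo against CD27hi CX3CR1- cells gave 0.023 for TCRBV12-01 and 0.012 for TCRBV12-02. edgeR called 0% of V genes for CX3CR1+ cells against the CX3CR1- subsets, 0% for TILs against CX3CR1+ cells and 0% for CD27lo against CD27hi. In that order 5, 6 and 0 of 24 V genes had an unadjusted p below 0.05, and DESeq2 called 4, 3 and 0.

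**Figure D2:**
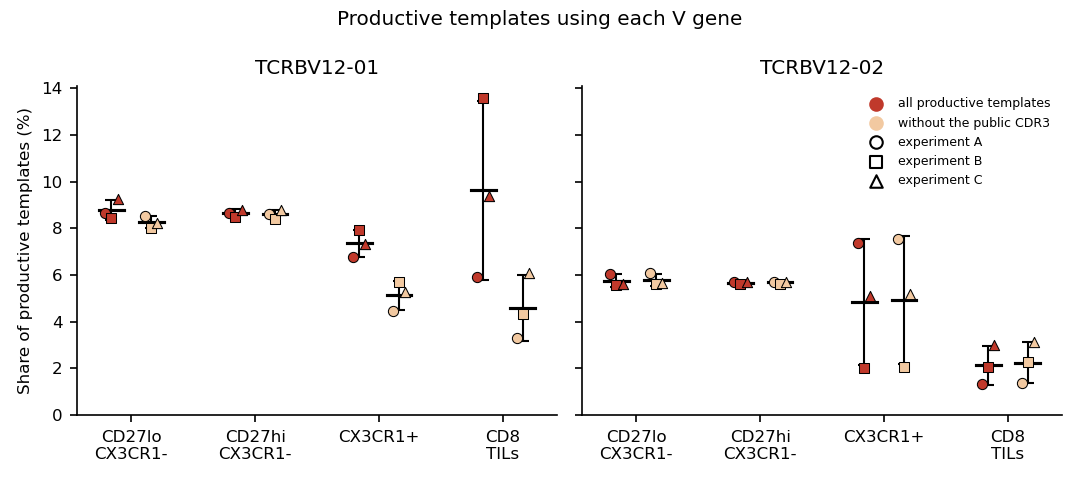
Share of productive templates (percent, y axis) that used TCRBV12-01 (left) or TCRBV12-02 (right), with all productive templates in red and the templates left after removal of the public CDR3 in tan, as 1 point per experiment with the mean and SD as lines. Removal lowered TCRBV12-01 in TILs from 5.91%, 13.6% and 9.39% to 3.31%, 4.34% and 6.09%, and left the CX3CR1- libraries above 8%.

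The public CDR3 carried much of the TCRBV12-01 templates in CX3CR1+ cells and TILs. It was found with TCRBV12-01 in all 12 libraries, as 53 entries of 15 distinct rearrangements with 7625 templates, every one joined to TCRBJ02-05. Of the 15 rearrangements 2 occurred in all 3 experiments, 1 in 2 experiments and 12 in 1 experiment. In experiments A, B and C its share of productive templates with TCRBV12-01 was 2.46%, 2.37% and 2.22% in CX3CR1+ cells and 2.68%, 9.66% and 3.52% in TILs. In CD27lo CX3CR1- cells it was 0.147%, 0.451% and 1.12%, and in CD27hi CX3CR1- cells 0.0575%, 0.0590% and 0.0251%. All 6 CX3CR1+ and TIL libraries were above all 6 CX3CR1- libraries, and no test is given because the study chose this CDR3 on the same libraries. It made up 36.2%, 29.9% and 30.2% of the TCRBV12-01 templates in CX3CR1+ cells and 45.4%, 71.1% and 37.4% in TILs. The CX3CR1- values were 1.69%, 5.35% and 12.1% in CD27lo and 0.663%, 0.697% and 0.286% in CD27hi cells.

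The same AA sequence was rare with TCRBV12-02, at 65 templates in 9 distinct rearrangements over all libraries. TCRBV03-01 carried it with 15 templates, and no other V gene had more than 3.

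Different rearrangements of the public CDR3 led in different experiments. R1 had 1370, 87 and 1733 templates in CX3CR1+ cells of experiments A, B and C and 158, 0 and 354 in TILs, where the 0 allows a share of up to 0.0242% (3 templates). R2 was seen in experiment B only, with 921 templates in TILs (7.43%, Wilson 95% interval 6.99% to 7.91%), 221 in CX3CR1+ cells, 17 in CD27lo CX3CR1- cells and 1 in CD27hi CX3CR1- cells. R3 stayed small, with 83 templates each in CX3CR1+ cells of experiments B and C and 19 in TILs of experiment C. In experiment A its only templates were 4 in CD27lo and 10 in CD27hi CX3CR1- cells. Intervals and limits of this kind cover counting error only.

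Without the public CDR3, TCRBV12-01 held 4.44%, 5.69% and 5.25% of productive templates in CX3CR1+ cells and 3.31%, 4.34% and 6.09% in TILs. The CX3CR1- values were 8.02% to 8.54% in CD27lo and 8.42% to 8.78% in CD27hi cells, so that all 6 CX3CR1+ and TIL libraries lay below all 6 CX3CR1- libraries. On the log2 scale CX3CR1+ cells then stood at −0.72 ± 0.175 (SE) and TILs at −0.79 ± 0.235 relative to the CX3CR1- subsets, and TILs at −0.062 ± 0.255 relative to CX3CR1+ cells. These values, and all others of TCRBV12-01 without the public CDR3, are a description with no test, because the CDR3 was chosen for its level in CX3CR1+ cells and TILs and its removal lowers TCRBV12-01 in just those groups. The unique share of TCRBV12-01 moved little, and its log2 difference between TILs and the CX3CR1- subsets became −0.51.

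Other CDR3s of TCRBV12-01 in the CX3CR1+ libraries resembled the public one. The most abundant after it were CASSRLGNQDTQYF in experiment A (1.10% of productive templates), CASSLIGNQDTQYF in experiment B (0.751%) and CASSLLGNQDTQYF in experiment C (0.969%), all joined to TCRBJ02-05. Among TCRBV12-01 CDR3s that differed from the public one by 1 residue, the CX3CR1+ and TIL libraries held 3, all of them different at position 6 counted from the first residue, with 1882 templates. They had 10, 592 and 1101 templates in CX3CR1+ cells of experiments A, B and C and 0, 67 and 112 in TILs. The CX3CR1- libraries held such CDR3s too, with 3, 6 and 5 of them at 3, 9 and 7 templates in CD27hi cells, and 2 of them in each CD27lo library at 3, 13 and 20 templates. This search was made after the values had been seen. In TILs the next most abundant CDR3 was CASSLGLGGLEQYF in experiments A (0.831%) and B (1.57%), joined to TCRBJ02-07, and a CDR3 of 15 residues in experiment C (1.82%).

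Sharing over all 6 CX3CR1+ and TIL libraries was seen for 3 of 1860 TCRBV12-01 CDR3s. They were the public one, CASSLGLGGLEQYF, whose share ranged from 0.0625% to 1.57%, and another of 15 or more residues, at 0.00392% in the library where it was lowest. None of 1426 TCRBV12-02 CDR3s was shared in this way. Of the 3, the public CDR3 had been picked by the study for such sharing. The CDR3 of 15 or more residues had only 2 templates each in CX3CR1+ cells of experiment B and in TILs of experiments A and B. The share over the CDR3s of all V genes was not counted, and a difference between the 2 V genes was not tested. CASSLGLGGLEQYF was at 0 to 0.0275% in the CX3CR1- libraries. That is a description with no test, because it was listed for its presence in the CX3CR1+ and TIL libraries.

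The most abundant CDR3s of TCRBV12-02 differed between libraries. In CX3CR1+ cells they were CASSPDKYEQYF in experiment A, with 1019 templates (1.83%, Wilson 95% interval 1.72% to 1.94%) and TCRBJ02-07, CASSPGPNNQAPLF in experiment B, with 126 templates (0.247%) and TCRBJ01-05, and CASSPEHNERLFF in experiment C, with 730 templates (0.642%) and TCRBJ01-04. In TILs of experiment C it was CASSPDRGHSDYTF, with 86 templates (0.410%) and TCRBJ01-02. In TILs of experiment A it was a CDR3 of 17 residues with 8 templates (0.136%).

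Expansion was then measured in 3 ways. Rearrangements with at least 1% of productive templates were absent from the CX3CR1- libraries for every V gene. TCRBV12-01 had 2, 0 and 1 of the 17, 9 and 8 such rearrangements in CX3CR1+ cells of experiments A, B and C and 1, 3 and 4 of the 12, 21 and 24 in TILs. Once the public CDR3 was removed, these became 1, 0 and 0 in CX3CR1+ cells and 0, 1 and 2 in TILs. TCRBV12-02 had 2, 0 and 0 in CX3CR1+ cells and 0 in each TIL library.

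Among the 100 most abundant rearrangements of a library, where rearrangements tied at the last place were counted in proportion, TCRBV12-01 had a mean of 11.7 ± 2.88 (SD, n = 3) in CD27lo CX3CR1-, 9.86 ± 2.78 in CD27hi CX3CR1-, 8.67 ± 5.13 in CX3CR1+ and 8.11 ± 2.52 in TIL libraries. TCRBV12-02 had 4.45 ± 2.56, 5.61 ± 2.64, 5.00 ± 2.65 and 3.67 ± 2.89. CX3CR1+ and TIL libraries differed from the CX3CR1- libraries by −2.41 for TCRBV12-01 (two-sided exact permutation within experiments, p = 0.139, adjusted p = 0.469) and by −0.70 for TCRBV12-02 (exact p = 0.454). This test called 0% of V genes, and 0 of 24 had an unadjusted p below 0.05. Without the public CDR3 the TCRBV12-01 difference was −3.08.

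Relative clone size, the log2 of a V gene's template share over its unique share, is 0 when its clones are of the library's mean size. For TCRBV12-01 it lay between −0.157 and 0.199 in the 9 splenic libraries and at 0.396, 1.07 and 0.483 in TILs of experiments A, B and C. For TCRBV12-02 it was within 0.0425 of 0 in the CX3CR1- libraries, 0.319, −1.44 and −0.141 in CX3CR1+ cells, and −1.26, −1.28 and −0.92 in TILs. With the public CDR3 included, the mean TIL clone of TCRBV12-01 was thus larger than the library mean in 3 of 3 experiments. That of TCRBV12-02 was smaller in 3 of 3, where the median over 24 V genes of the mean TIL values was also below 0, at −0.32.

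By the exact permutation over 23 V genes, CX3CR1+ and TIL libraries together differed from the CX3CR1- libraries by 0.22 for TCRBV12-01 (p = 0.333, adjusted p = 0.548) and by −0.78 for TCRBV12-02 (exact p = 0.0648, adjusted p = 0.149). In this comparison 21.7% of V genes passed, and the median difference was −0.34. Without the public CDR3 the TCRBV12-01 value was −0.48, again as a description. The TIL values of TCRBV12-01 then were −0.415, −0.503 and −0.0949.

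Overlap of the tumor clones with the spleen was compared next, because the study asked whether CX3CR1+ cells share the TIL repertoire. Of the TIL templates that used TCRBV12-01, rearrangements also present in CX3CR1+ cells of the same experiment held 67.8%, 94.4% and 78.7% in experiments A, B and C. Those present in CD27lo CX3CR1- cells held 47.1%, 83.1% and 64.8%, and those in CD27hi CX3CR1- cells 61.8%, 78.1% and 65.1%. For TCRBV12-02 the CX3CR1+ values were 38.5%, 66.1% and 85.3%, against 10.3%, 11.0% and 53.4% in CD27lo and 33.3%, 3.54% and 57.2% in CD27hi CX3CR1- cells. CX3CR1+ cells were highest in every experiment for both V genes.

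Set against the average of both CX3CR1- subsets, CX3CR1+ cells were higher by 13.6 percentage points for TCRBV12-01 and by 35.2 for TCRBV12-02. Both gave an exact permutation p of 0.037, the smallest that 27 arrangements within 3 experiments allow, and an adjusted p of 0.0608 over 23 V genes. The test called 0% of V genes, 14 of 23 had an unadjusted p below 0.05, and the median difference over V genes was 33.3 percentage points. Without the public CDR3 the TCRBV12-01 values were 41.1%, 80.7% and 90.6% in CX3CR1+ cells, 3.16%, 41.8% and 50.4% in CD27lo and 30.0%, 24.3% and 44.2% in CD27hi CX3CR1- cells, and the difference was 38.5 percentage points.

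By unique productive rearrangements the CX3CR1+ libraries were the smallest splenic ones, with 5591 to 11455. CD27lo CX3CR1- libraries held 12910 to 15489 and CD27hi CX3CR1- libraries 38014 to 54639. By productive templates the CX3CR1+ libraries were the largest splenic ones of experiments A, B and C, with 55776, 50994 and 113660. CD27lo CX3CR1- libraries held 18378, 18180 and 21622 templates and CD27hi CX3CR1- libraries 53946, 49116 and 71574. Whether depth contributed to the overlap was not tested. Counted as rearrangements and not as templates, 12 of 61, 40 of 100 and 65 of 146 TCRBV12-01 rearrangements of the TILs were also in CX3CR1+ cells in experiments A, B and C. In CD27lo CX3CR1- cells 2, 12 and 17 of them were found, and in CD27hi CX3CR1- cells 6, 15 and 26. For TCRBV12-02 the CX3CR1+ counts were 10 of 43, 26 of 77 and 54 of 124. The CD27lo counts were 3, 3 and 15 and the CD27hi counts 6, 6 and 20. The share over all V genes was computed for templates only. Its median over 24 V genes was 71.4% in CX3CR1+, 33.4% in CD27lo CX3CR1- and 32.0% in CD27hi CX3CR1- cells.

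**Figure D3:**
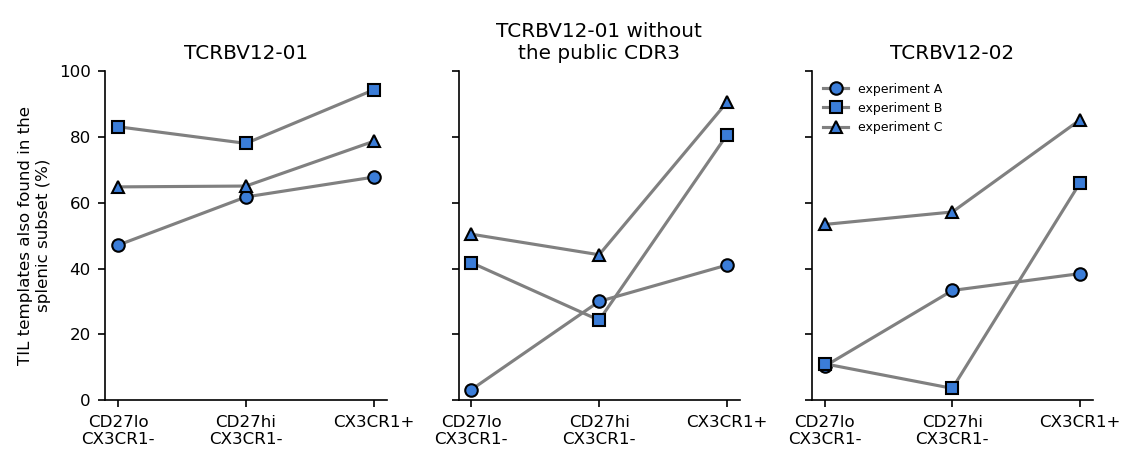
Percent of the TIL templates of a V gene (y axis) whose rearrangement was also in the splenic subset on the x axis in the same experiment, for TCRBV12-01, TCRBV12-01 without the public CDR3 and TCRBV12-02, with 1 line per experiment. CX3CR1+ cells were highest in each experiment. Removal of the public CDR3 lowered the TCRBV12-01 values in the CX3CR1- subsets, such as from 83.1% to 41.8% in CD27lo CX3CR1- cells of experiment B. In CX3CR1+ cells removal lowered them in experiments A (67.8% to 41.1%) and B (94.4% to 80.7%) and raised them in C (78.7% to 90.6%).

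J partners of the V genes were examined among unique productive rearrangements. The 3 J genes used most by TCRBV12-01, by the mean of the 4 groups, were TCRBJ02-07 (22.8%), TCRBJ02-01 (14.0%) and TCRBJ02-05 (12.5%). For TCRBV12-02 they were TCRBJ02-07 (24.7%), TCRBJ02-05 (14.1%) and TCRBJ02-01 (10.6%). TCRBJ02-05, the partner of the public CDR3, made up 8.20%, 18.0% and 22.6% of TCRBV12-01 rearrangements in TILs of experiments A, B and C, and 9.83%, 15.3% and 10.6% in CX3CR1+ cells. The CD27lo and CD27hi CX3CR1- libraries held 10.2% to 11.7%. With the public CDR3 removed, the TIL values were 6.67%, 13.7% and 19.9%. The pair of TCRBV12-01 with TCRBJ02-05 did not pass between TILs and the CX3CR1- subsets (log2 difference 0.27 ± 0.212, adjusted p = 0.629, edgeR). By templates, TCRBJ02-05 made up 46.8%, 76.7% and 45.9% of TCRBV12-01 in TILs and 55.2%, 51.0% and 47.7% in CX3CR1+ cells, against 8.92% to 20.2% in the CX3CR1- libraries. Of the templates left after removal of the public CDR3 it made up 2.63%, 19.3% and 13.5% in TILs, 29.8%, 30.0% and 25.1% in CX3CR1+ cells and 7.72% to 9.19% in the CX3CR1- libraries.

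**Figure D4:**
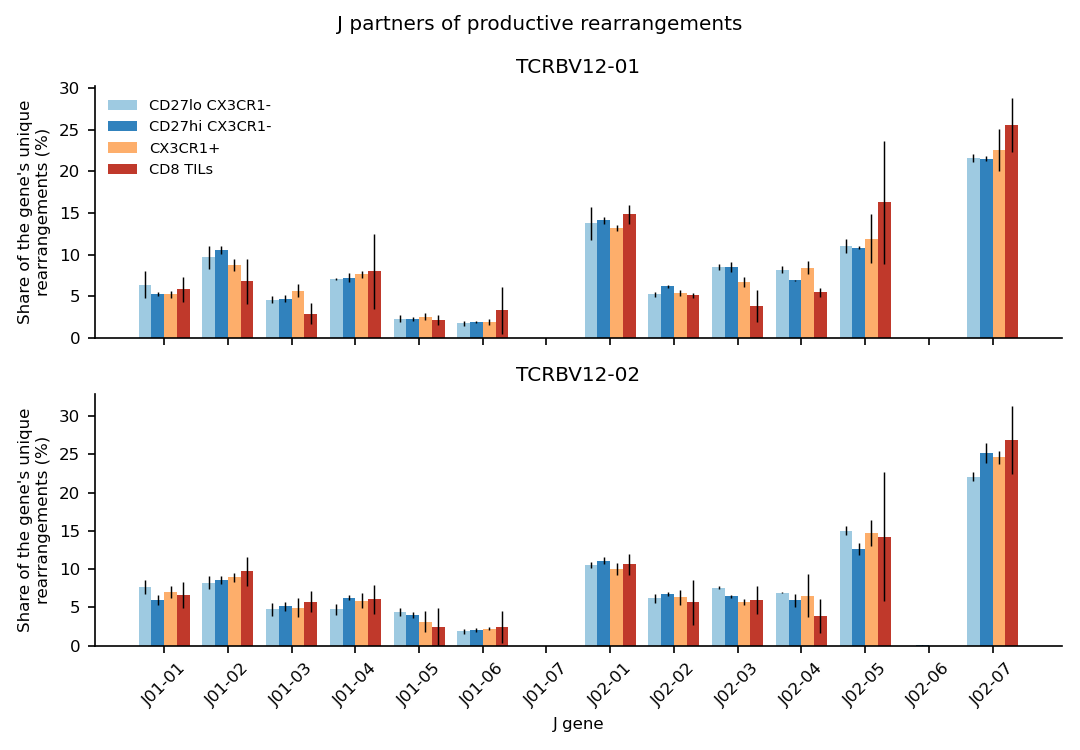
Share of the unique productive rearrangements of TCRBV12-01 (top) and TCRBV12-02 (bottom) joined to each J gene (percent, y axis), as the mean of 3 experiments per group with the SD as error bars. TCRBJ02-07 was the most used partner of both, and TCRBJ02-03 made up a mean of 8.50% of TCRBV12-01 in CD27hi CX3CR1- cells and 3.81% in TILs.

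The pairs of TCRBV12-01 with TCRBJ02-03 and with TCRBJ01-02 were lower in TILs than in the CX3CR1- subsets as a share of all unique productive rearrangements. Within TCRBV12-01, TCRBJ02-03 made up 8.07% to 8.73% of TCRBV12-01 rearrangements in CD27lo CX3CR1- cells, 7.81% to 8.94% in CD27hi CX3CR1- cells and 6.05% to 7.14% in CX3CR1+ cells. In TILs of experiments A, B and C it made up 1.64%, 5% and 4.79%, which are 1, 5 and 7 rearrangements. TCRBJ01-02 made up 9.84%, 5% and 5.48% in TILs, which are 6, 5 and 8 rearrangements, and 8.11% to 11.2% in the splenic libraries, which the TILs of experiment A overlapped.

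As a share of all unique productive rearrangements, the pair with TCRBJ02-03 was lower in TILs than in the CX3CR1- subsets by −1.47 ± 0.348 on the log2 scale (adjusted p = 0.00328, edgeR over 251 V-J pairs), and the pair with TCRBJ01-02 by −1.17 ± 0.302 (adjusted p = 0.00876, edgeR). The first call was lost without experiment A (−1.11), the second without experiment B (−1.14) or without experiment C (−1.13). These were 2 of the 12 TCRBV12-01 pairs tested, against 0 of the 12 TCRBV12-02 pairs and 2.79% of all pairs. Pair shares of this kind contain the lower share of TCRBV12-01 as a whole (−0.46). In TILs 10 of the 12 TCRBV12-01 pairs were lower (median log2 difference −0.49), and 10 of the 12 TCRBV12-02 pairs (−0.21). Over all 251 pairs 138 were lower (−0.067). J use within TCRBV12-01 was not tested. Of the TCRBV12-02 pairs 1 had an unadjusted p below 0.05. edgeR called no pair of either V gene for CX3CR1+ cells against the CX3CR1- subsets (1.59% of all pairs) or for TILs against CX3CR1+ cells (0.398%), where the pairs with TCRBJ02-03 and TCRBJ01-02 had adjusted p-values of 0.193 and 0.191. At an unadjusted p below 0.05 stood 2 TCRBV12-01 and 0 TCRBV12-02 pairs in the first of these comparisons and 4 and 1 in the second.

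In the CX3CR1- subsets most J partners were used more in productive than in out-of-frame rearrangements. In CD27hi CX3CR1- cells, 9 of 12 TCRBV12-01 pairs were higher and 1 lower, and 11 of 12 TCRBV12-02 pairs were higher, where 72% of all pairs passed in either direction. The 5 largest of TCRBV12-01 were with TCRBJ01-02, TCRBJ02-01, TCRBJ02-07, TCRBJ02-02 and TCRBJ02-03 (log2 0.62 to 1.20), and those of TCRBV12-02 with TCRBJ01-02, TCRBJ02-07, TCRBJ02-05, TCRBJ02-02 and TCRBJ01-03 (0.97 to 1.16). The exception was TCRBV12-01 with TCRBJ01-06, at −0.49 ± 0.166 (adjusted p = 0.00582, edgeR) in CD27hi and −0.72 ± 0.306 (adjusted p = 0.0394, edgeR) in CD27lo CX3CR1- cells.

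In CD27lo CX3CR1- cells 7 TCRBV12-01 pairs were higher and 1 lower, and 9 TCRBV12-02 pairs were higher, with 53.3% of all pairs called. The 4 largest increases were with TCRBJ01-02, TCRBJ02-03, TCRBJ01-03 and TCRBJ02-01 for TCRBV12-01 (0.70 to 0.93). For TCRBV12-02 the 5 largest were with TCRBJ02-05, TCRBJ01-02, TCRBJ01-05, TCRBJ02-07 and TCRBJ01-03 (0.94 to 1.33). In CX3CR1+ cells 3 TCRBV12-01 pairs were higher (TCRBJ01-02, TCRBJ02-07 and TCRBJ02-01, 0.54 to 0.70) and 6 TCRBV12-02 pairs (the largest with TCRBJ01-02, TCRBJ02-05, TCRBJ01-01, TCRBJ01-04 and TCRBJ02-02, 0.93 to 1.71), with 34.5% of all pairs called. In TILs 8 of 12 TCRBV12-01 pairs and 1 of 12 TCRBV12-02 pairs had a lower value in productive rearrangements (median log2 difference −0.13 and 0.84), and no pair of either V gene passed, with 1.53% of all pairs called by edgeR. At an unadjusted p below 0.05 stood 0 TCRBV12-01 and 2 TCRBV12-02 pairs. The change of this shift in CX3CR1+ cells and TILs gave 0% of pairs called by edgeR, with 32 of 261 at an unadjusted p below 0.05.

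The junctions of both V genes shared features that the choice by name did not use, and these are given as a description without a test. Productive TCRBV12-01 rearrangements had lost a mean of 1.46 to 1.75 V nucleotides per library and TCRBV12-02 ones 1.43 to 1.91, against 2.76 to 2.87 for all other V genes together. Both were below the other V genes in 12 of 12 libraries, and also among out-of-frame rearrangements. No V nucleotide was deleted in 35.3% to 43.0% of TCRBV12-01 and 34.8% to 41.8% of TCRBV12-02 rearrangements, against 19.2% to 24% for the other V genes.

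Among productive rearrangements, TCRBV12-01 alone was on 1 side in all libraries for insertions and D use. It had more inserted nucleotides than the other V genes in 12 of 12 libraries (3.48 to 3.71 against 3.41 to 3.57), while TCRBV12-02 was higher in 6 and lower in 6. It used TCRBD02 in 45.9% to 57.9% of rearrangements with a resolved D gene, above the other V genes (41.7% to 46.9%) in 12 of 12 libraries, while TCRBV12-02 was above them in 8. Among out-of-frame rearrangements TCRBV12-01 was above the other V genes in 11 of 12 libraries for insertions and in 12 of 12 for TCRBD02. Mean CDR3 length was 13.8 to 14.2 residues for TCRBV12-01 and 13.7 to 14.1 for TCRBV12-02, and the other V genes lay at 13.9 to 14.0 in every library. CDR3s of 14 residues, the length of the public CDR3, were more frequent in TCRBV12-01 than in the other V genes in 11 of 12 libraries and in TCRBV12-02 in 9.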

How the data were processed

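TCRβ rearrangements were read from genomic DNA of 12 libraries, 4 groups in 3 experiments, with the ImmunoSEQ assay at survey level. The authors processed the reads on that platform and deposited, per rearrangement, a template count without normalization, the reading-frame status, V, D and J genes, CDR3, and numbers of inserted and deleted nucleotides. The build named in the submitters' notes is mm10. Experiment and group came from the sample labels. A code in the labels marks the 4 libraries of an experiment, which come from the same mice, and the experiment was therefore a block. Over 24 V genes, deviations from the group means of template shares correlated above 0.1 in 14 of 18 same-experiment library pairs and in 7 of 36 others, and those of unique shares in 6 of 18 and 12 of 36.

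Counts of unique rearrangements and of templates per V gene or V-J pair were tested with edgeR 4.0.16 in R 4.3.3 (quasi-likelihood, offset the log library total, all 12 libraries, experiment or library as a block, features with 10 or more in at least 3 libraries). A threshold of 0.05 after Benjamini-Hochberg adjustment over all features was used. Top-100 counts, relative clone size and TIL overlap were tested by two-sided exact permutation within experiments, for every V gene. The members and lists were chosen with earlier results of these data known. TCRBV12-01 and TCRBV12-02 are named in every result. J genes are the 3 most used per member and those whose pair passed (at most 5 per member and contrast). CDR3s are the most abundant per CX3CR1+ and TIL library, the public one, and those in all 6 of these libraries. CDR3s of 15 or more residues are not printed. Nucleotide sequences of TCRBV12-02 rearrangements, and 1 of its CDR3s, are not reported here. Alternatives were TMM, DESeq2 1.42.0, no filter, no block, each experiment left out, 2 or more templates, equal depth (5893 templates), removal of the public CDR3 or of the largest rearrangement, other totals, and AA clonotypes. Leave-outs and settings for V-J pairs were added after seeing the data. Shares of single rearrangements carry Wilson 95% confidence intervals. Scripts were tested on simulated data and run with Python 3.11.15, numpy 2.4.6, pandas 2.3.3, scipy 1.17.1 and matplotlib 3.10.9.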

Additional observations from a re-analysis of the deposited data

Results flagged for a closer look

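The shift of TCRBV12-01 from out-of-frame to productive use, averaged over CX3CR1+ cells and TILs, differed from its mean in the CX3CR1- subsets by −0.34 (log2). By group it was 0.45 in CX3CR1+ cells and −0.011 in TILs, against 0.50 in CD27lo and 0.62 in CD27hi CX3CR1- cells. CX3CR1+ cells and TILs were not tested apart. The averaged difference was singled out because it had an unadjusted p of 0.0031 (edgeR), while the adjusted p was 0.0775. The value rests on 38, 35 and 70 out-of-frame and 61, 100 and 146 productive TCRBV12-01 rearrangements in the TILs of experiments A, B and C.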

How the results depend on the processing

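The 32 values tested for TCRBV12-01 and TCRBV12-02 were recomputed 326 times. Direction and side of the threshold held 280 times, 14 values lost and 10 gained significance, and 22 changed sign, and the cause was not tested. Precision was limited by the 43 to 146 productive and 18 to 70 out-of-frame rearrangements of each V gene per TIL library.

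For unique shares with only rearrangements of 2 or more templates, TCRBV12-01 gave −0.26 (now past the threshold) for CX3CR1+ cells against the CX3CR1- subsets. TILs gave −0.40 against the CX3CR1- subsets and −0.14 against CX3CR1+ cells (both lost), and CD27lo against CD27hi 0.057. TCRBV12-01 in TILs against CX3CR1+ cells also lost its call without the filter (−0.36) and at equal depth (−0.32). TCRBV12-02 in CX3CR1+ cells against the CX3CR1- subsets was 0.017 with TMM, 0.061 with 2 or more templates and 0.042 at equal depth, and in TILs −0.40 at equal depth (now past the threshold). With each experiment left out, TILs against the CX3CR1- subsets ranged from −0.48 to −0.081 for TCRBV12-02. TILs against CX3CR1+ cells ranged from −0.43 to −0.26 for TCRBV12-01 and from −0.47 to −0.048 for TCRBV12-02.

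For template shares, TCRBV12-01 in CX3CR1+ cells against the CX3CR1- subsets was 0.0081 with TMM and 0.084 with DESeq2, scalings that moved the median of all V genes by 0.26 and 0.34. Without the public CDR3, whose choice makes this a description, TCRBV12-01 gave −0.72 for this comparison, −0.79 for TILs against the CX3CR1- subsets, −0.062 for TILs against CX3CR1+ cells and −0.059 for CD27lo against CD27hi, and its relative clone size −0.48. TCRBV12-02 in TILs against the CX3CR1- subsets gave −1.16 (lost). CD27lo against CD27hi was −0.013 for TCRBV12-01 without the largest rearrangement. For TCRBV12-02 it was −0.0048 with DESeq2 and −0.00018 with all rearrangements in the total. With each experiment left out, CX3CR1+ cells against the CX3CR1- subsets ranged from −0.68 to 0.097 for TCRBV12-02, and TILs from −0.15 to 0.37 for TCRBV12-01 and from −1.72 to −1.16 for TCRBV12-02. CD27lo against CD27hi ranged from −0.0027 to 0.038 and from −0.027 to 0.030.

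Productive against out-of-frame use on templates was 0.68, 0.66 and 1.26 for TCRBV12-01 in CD27lo CX3CR1-, CD27hi CX3CR1- and CX3CR1+ cells and 0.98 for TCRBV12-02 in CD27lo CX3CR1- cells (all lost), and 1.02 and −0.75 in TILs. With stop codons added it was 0.035 for TCRBV12-01 in TILs, and with each experiment left out −0.14 to 0.12 and, for TCRBV12-02, 0.54 to 1.08. The group difference of TCRBV12-01 passed with TMM (−0.47) and DESeq2 (−0.38), was −0.37 without the public CDR3 and 0.47 on templates and ranged from −0.47 to −0.21 with each experiment left out.

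Without the replicate block that same difference was −0.35 and passed, the only call for TCRBV12-01 or TCRBV12-02, the 2 J pairs that passed included, that dropping the block changed. Without the block, TCRBV12-01 in TILs against the CX3CR1- subsets was −0.46 by unique share (adjusted p = 0.00327, edgeR) and TCRBV12-02 −1.37 by templates (adjusted p = 0.0127).

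Numbers of V genes called moved by over 1.5 times. For unique shares they were 0 to 4 for CX3CR1+ cells against the CX3CR1- subsets, 2 to 8 for TILs against the CX3CR1- subsets and 0 to 3 for TILs against CX3CR1+ cells, and for template shares 0 to 11, 0 to 8 and 0 to 3. Productive against out-of-frame use gave 4 to 25, 6 to 24, 6 to 22 and 3 to 14 in the 4 groups and 0 to 3 for the group difference, and relative clone size 0 to 9. Of 6 template calls in TILs, 1 was higher. With TMM and with DESeq2 2 of 5 were.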
